A study of Homo sapiens with 9 samples.

Results

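The metallothioneins and zinc response genes were 8 genes taken by symbol from the count files. They were the metallothioneins MT1E, MT1F, MT1G, MT1M, MT1X and MT2A, their transcription factor MTF1 and the zinc exporter SLC30A1. All 8 were found, among 60880 gene IDs in each library.

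SNU5, a human cell line established from gastric carcinoma, was the source of all 9 RNA-seq libraries, which were made from poly-A RNA. The NR group received ramucirumab carried on gold nanorods through polyethylene glycol (AuNR-PEG-Ab), the SP group the same antibody on gold nanospheres (AuSP-PEG-Ab), and the Ab group the antibody alone, with 3 libraries in each group. Ramucirumab is a monoclonal antibody against VEGFR2, and every group was given 8 μg/mL of it for 24 h. Untreated cells and particles without antibody were not among these groups, so Ab is a treated control, and gold, polyethylene glycol and conjugation cannot be told apart. The study's text speaks of biological replicates and of independent repeats of its cell experiments, but the labels do not tie these libraries to separate cultures, so p-values measure the spread between these libraries, which may be technical.

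NR libraries 1 to 3 held 25735410, 13863155 and 15943980 counts. SP libraries held 21682836, 22914759 and 20601906, and Ab libraries 19566064, 26318227 and 21031024. A count of 0 allows up to 3 counts, which was 0.114 to 0.216 CPM (counts scaled to a common library total) and covers counting error only.

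Metallothioneins are small proteins, rich in cysteine, that bind zinc, copper and cadmium. MTF1 is the factor that senses free zinc and binds metal response elements in the promoters of metallothionein genes and of SLC30A1. The SLC30A1 protein, also called ZnT1, moves zinc out of the cell across the plasma membrane, so the pathway both stores and exports the metal.

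Of the annotated metallothionein genes, 15 lie in a cluster at chr16:56598985-56718108 (GRCh37), which spans 119.1 kb. The 6 metallothioneins among the members are protein-coding genes of this cluster. MTF1 lies at chr1:38275246-38325264 and SLC30A1 at chr1:211744910-211752503, both on the minus strand. MT2A (ENSG00000125148, chr16:56642496-56643409) and MT1E (ENSG00000169715, chr16:56659387-56661024), both on the plus strand, took most metallothionein counts in every library. Their coding sequences, with the coding exons joined and the stop codon left out, are shown because reads of such close paralogs can be hard to assign. Capitals mark the bases at which MT1E differs from MT2A.
MT2A: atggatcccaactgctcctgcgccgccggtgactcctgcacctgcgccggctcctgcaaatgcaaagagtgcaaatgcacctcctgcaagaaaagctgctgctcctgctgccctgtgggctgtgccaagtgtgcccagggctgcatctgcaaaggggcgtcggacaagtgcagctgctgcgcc
MT1E: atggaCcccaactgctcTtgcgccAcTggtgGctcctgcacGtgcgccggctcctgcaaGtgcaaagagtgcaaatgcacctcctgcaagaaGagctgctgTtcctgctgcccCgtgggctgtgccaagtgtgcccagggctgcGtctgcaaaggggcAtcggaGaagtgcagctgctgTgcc
Both sequences have 183 bases, or 61 codons, of which 20 encode cysteine. They differed at 14 bases, an identity of 92.3%, and their longest identical run was 32 bases. No stretch of 75 bases of the MT2A transcript occurred in another gene of the annotation, and 0.794% of those of MT1E did, in the pseudogenes MT1JP and MT1P3. For MT1X the share was 36.1%, and 18.6% of its exon bases lie in another gene, so counts of MT1X are uncertain. The share was 6.55% for MT1G, 0.42% for MTF1, and 0 for MT1F, MT1M and SLC30A1. Reads were 150 bases long and paired, and how the counting treated reads with several equally good positions, and whether it used strand, are not given in the sources used here.

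The promoters are shown because MTF1 acts through a short motif in them. In the RefSeq promoter table (GRCh38.p14), which covers 250 bases before to 50 bases after each gene start, 4 of the 8 members had an entry. MT1E, MT1F, MT1G and MT1M had none. The core of the metal response element was searched as TGCACNC or TGCGCNC on both strands, with overlapping matches counted. Below are the 250 bases before the start, 5′ to 3′ on the strand of the gene, with matches on either strand in capitals. The MT2A sequence was found unchanged at chr16:56642246-56642495 and that of SLC30A1 at chr1:211752504-211752753 (GRCh37).
MT2A promoter: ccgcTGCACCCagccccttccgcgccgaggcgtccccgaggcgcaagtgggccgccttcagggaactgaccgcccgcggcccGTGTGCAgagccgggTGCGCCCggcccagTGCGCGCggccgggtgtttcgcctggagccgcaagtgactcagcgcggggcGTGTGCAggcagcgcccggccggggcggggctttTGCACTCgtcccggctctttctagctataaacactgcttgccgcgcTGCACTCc
SLC30A1 promoter: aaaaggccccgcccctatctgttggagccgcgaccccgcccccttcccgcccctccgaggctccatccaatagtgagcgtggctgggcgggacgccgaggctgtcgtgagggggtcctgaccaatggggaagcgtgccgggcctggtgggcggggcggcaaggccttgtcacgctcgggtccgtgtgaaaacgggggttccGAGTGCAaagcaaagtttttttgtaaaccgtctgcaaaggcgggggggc
The whole MT2A window of 300 bases held 8 matches, 1 of them after the gene start. Of 35116 promoters in the table, 0.0199% had at least 8 matches. MT1H, a metallothionein gene of the cluster outside the members, also had 8 matches, and it had 0 counts in all libraries. MT1B and MT4, also outside the members, had 3 each. MT1X had 4 matches (at least 4 in 0.601% of promoters) and SLC30A1 had 2 (at least 2 in 8.6%), 1 of them after the start. At least 1 match was present in 29.6% of all promoters, and none in the MTF1 window. A match is a string of letters and not a measured binding site.

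The Ab libraries stood apart from all others across the transcriptome. In NR against Ab, 72.7% of the 15009 genes tested passed an adjusted p of 0.05 by the quasi-likelihood test of edgeR with p-values adjusted after Benjamini and Hochberg, and in SP against Ab 73% of 15068 did. In NR against SP it was 0.443% of 14903. Mitochondrial genes took 4.36% to 4.66% of the counts in NR and SP libraries and 3.41% to 3.71% in Ab libraries. The summed level of 7 epithelial markers was 2266 to 2422 CPM in NR and SP and 898 to 958 CPM in Ab. KRT8, a keratin of simple epithelia, was the most abundant of them in the mean of all libraries (1508 CPM), whereas KRT19 had at most 1 count in any library. CDH1, the epithelial cadherin, was at 5.68 ± 0.155 CPM in NR, 6.78 ± 0.543 CPM in SP and 0.291 ± 0.123 CPM in Ab (SD, n = 3). CLDN4 and CLDN7, also epithelial markers, did not pass in either comparison with Ab. The 6 fibroblast markers summed to 106 to 119 CPM in NR and SP and 17.7 to 45.3 CPM in Ab. COL1A1 was the most abundant of them in the mean of all libraries (33.4 CPM). In NR its mean of 37.1 CPM was just below that of LUM. DCN and LUM, both proteoglycans of connective tissue, were at 19.9 ± 0.381 and 37.5 ± 0.735 CPM in NR, 21.2 ± 0.712 and 38.6 ± 0.522 CPM in SP, and 0.53 ± 0.24 and 0.928 ± 0.0206 CPM in Ab. These and PDGFRB were called higher in NR and SP, whereas the collagens COL1A1, COL1A2 and COL3A1 did not pass, and COL1A2 was at 0.479 ± 0.83 CPM in NR, 2.16 ± 0.0887 in SP and 7.42 ± 5.07 in Ab. Of 5 endothelial markers 4 were matched, and they summed to 20.8 to 24.2 CPM in NR and SP and 3.53 to 5.04 CPM in Ab, nearly all from CDH5. KDR, which encodes VEGFR2, had 1 count in all 9 libraries together. The 7 leukocyte markers summed to 3.06 to 6.09 CPM in NR and SP and 0.523 to 1.33 CPM in Ab, with MS4A1 and LYZ at 0 counts throughout. CSF1R was the most abundant of them in the mean of all libraries (2.71 CPM). It was at 3.79 ± 0.749 CPM in NR, 4.14 ± 1.51 in SP and 0.2 ± 0.0902 in Ab, where CD14 was higher. CD14 went the other way, at 0.257 ± 0.222 CPM in NR, 0.141 ± 0.0842 in SP and 0.649 ± 0.372 in Ab, called lower in NR (log2 −1.52, SE 0.57, edgeR adjusted p = 0.0201) with libraries that overlapped, and not tested in SP. All 4 sums were higher in every nanoparticle library than in any Ab library, and their part in the results below was not tested. The labels give no batch or culture for the libraries, so the treatment and any other difference between the Ab cells and the rest, in origin, culture or batch, cannot be told apart in any fold against Ab. In bulk RNA, fewer cells of a type and less RNA per cell cannot be told apart.

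Against Ab, MT1E was higher in both nanoparticle groups, MT2A differed by little, and SLC30A1 and MTF1 were lower. MT1E was 3.81-fold higher in NR than in Ab, and SLC30A1 was 2.03-fold lower. MT1F was low, MT1X lower still, and MT1G and MT1M were at or near 0 counts. Of the 8 members, 4 had enough counts to be tested against Ab, and 5 in NR against SP. A call needed both an adjusted p no higher than 0.05 and a 2-fold difference. In NR against Ab 2 members were called, MT1E higher and SLC30A1 lower, where 22.7% of all genes tested were called, 12.4% higher and 10.3% lower. In SP against Ab 1 member was called, MT1E, where 23.2% of all genes were, 12.6% higher and 10.6% lower. None was called in NR against SP, where 0.0201% of all genes were. No member tested reached an adjusted p of 0.05 in NR against SP by edgeR. DESeq2 gave an adjusted p to SLC30A1 only (0.0898) and left it NA for the other 4. SLC30A1 alone had an unadjusted p under 0.05 by edgeR (0.00394). NR and SP were compared with the same 3 Ab libraries, so the 2 comparisons with Ab are not independent of each other.

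**Figure D1:**
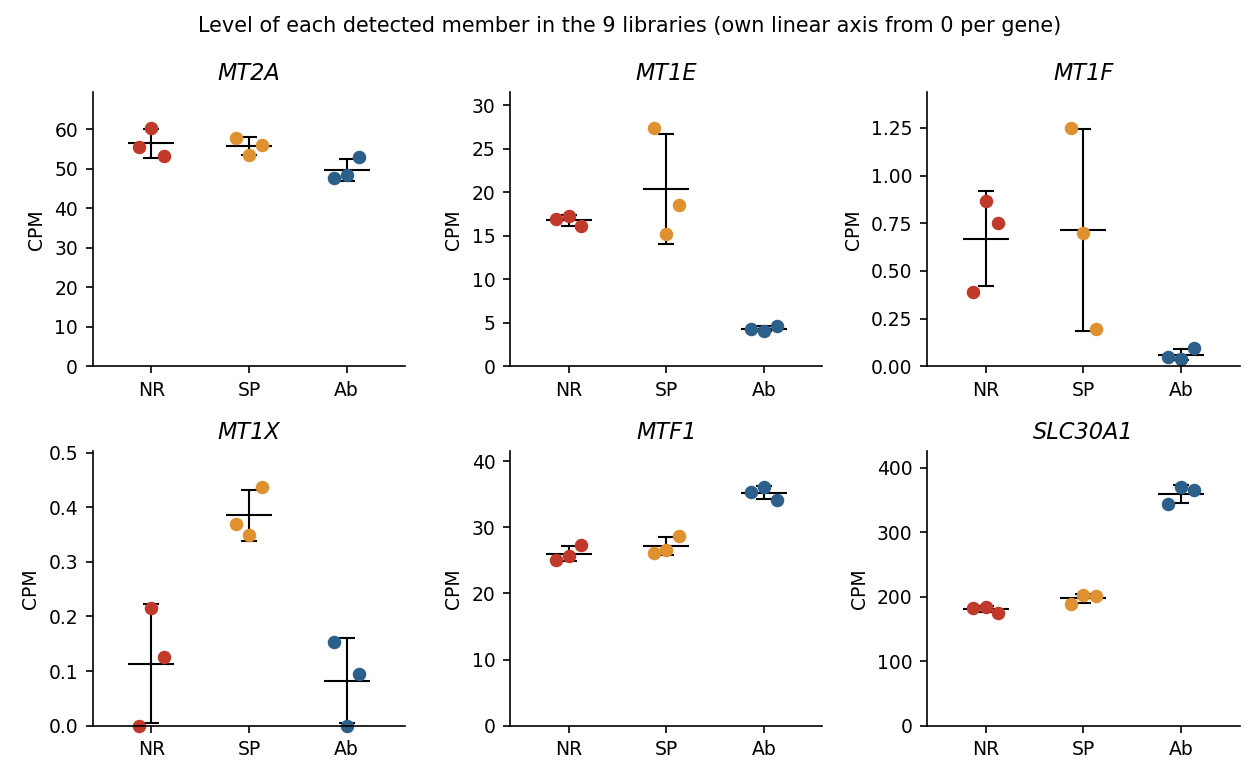
Level in CPM (vertical axis, linear from 0, with its own range for each gene) of the 6 members with more than 1 count, in NR, SP and Ab; points are libraries 1 to 3 from left to right, and bars are the mean and SD of 3 libraries. MT1E lies at 4.03 to 4.66 CPM in Ab and at 15.2 to 27.4 CPM in the other libraries, MT2A at 47.8 to 60.4 CPM in all libraries, and SLC30A1 at 343 to 370 CPM in Ab against 175 to 202 CPM.

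MT2A was the metallothionein with the most counts. Its level was 55.6, 60.4 and 53.3 CPM in libraries 1 to 3 of NR, 57.8, 53.5 and 56.1 CPM in SP, and 47.8, 48.5 and 53.0 CPM in Ab. The lowest nanoparticle library lay only just above the highest Ab library. In NR the log2 fold change against Ab was 0.15 (SE 0.06, adjusted p = 0.0314 in edgeR), and in SP it was 0.14 (SE 0.06, adjusted p = 0.0502), which missed the threshold. DESeq2 gave an adjusted p of 0.0837 for NR, and leaving out NR1, NR2, Ab1 or Ab2 brought it to 0.0679, 0.211, 0.0655 and 0.118. Across 12 alternatives its log2 fold change in NR was between 0.10 and 0.20. NR and SP differed by 0.02 (95% interval −0.10 to 0.13, adjusted p = 0.933).

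MT1E had the largest fold change of the 4 members tested against Ab. Its level was 16.9, 17.3 and 16.1 CPM in NR, 27.4, 15.2 and 18.5 CPM in SP, and 4.29, 4.03 and 4.66 CPM in Ab. Every nanoparticle library was above every Ab library, and SP1 was the highest of all. The log2 fold change against Ab was 1.93 (SE 0.12, adjusted p = 1.69e-14) in NR and 2.21 (SE 0.26, a 4.64-fold change, adjusted p = 0.000235) in SP, both by edgeR. Without SP1 the value in SP was 1.93. NR and SP differed by −0.28 (95% interval −0.93 to 0.37, adjusted p = 0.72), an interval wide enough to hold a change of nearly 2-fold.

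The share of MT1E among the metallothionein counts was higher in every nanoparticle library than in any Ab library. MT1E made up 23, 21.8 and 22.7% of all metallothionein counts in NR libraries, 31.4, 21.7 and 24.4% in SP libraries and 8.12, 7.51 and 7.9% in Ab libraries. The Wilson 95% interval was 29.4 to 33.6% in SP1 and 19.7 to 23.7% in SP2, so the SP libraries differed by more than counting error. The mean share was 22.5 ± 0.661% in NR, 25.8 ± 5.05% in SP and 7.85 ± 0.31% in Ab (SD, n = 3). With 3 libraries against 3, the two-sided exact permutation p was 0.10 for each nanoparticle group against Ab, the smallest this design allows, and 0.40 for NR against SP. MT2A held 90.3 ± 0.371% of metallothionein counts in Ab, 75.7 ± 0.278% in NR and 72.1 ± 5.16% in SP.

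Because reads can be split wrongly among paralogs, all metallothionein counts were also summed. The sum was 74.5 ± 4.55 CPM in NR, 77.8 ± 8.64 CPM in SP and 55.1 ± 3.33 CPM in Ab. In the fit across all genes it was 1.33-fold higher in NR than in Ab (log2 fold change 0.41, SE 0.06, edgeR adjusted p = 8.93e-07) and 1.39-fold higher in SP (0.47, SE 0.07, adjusted p = 3.44e-06). The sum does not depend on how counted reads were divided among these genes. Any reads left uncounted because they match several genes would be missing from the sum as well. NR and SP differed by −0.06 (SE 0.07, adjusted p = 0.76).

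**Figure D2:**
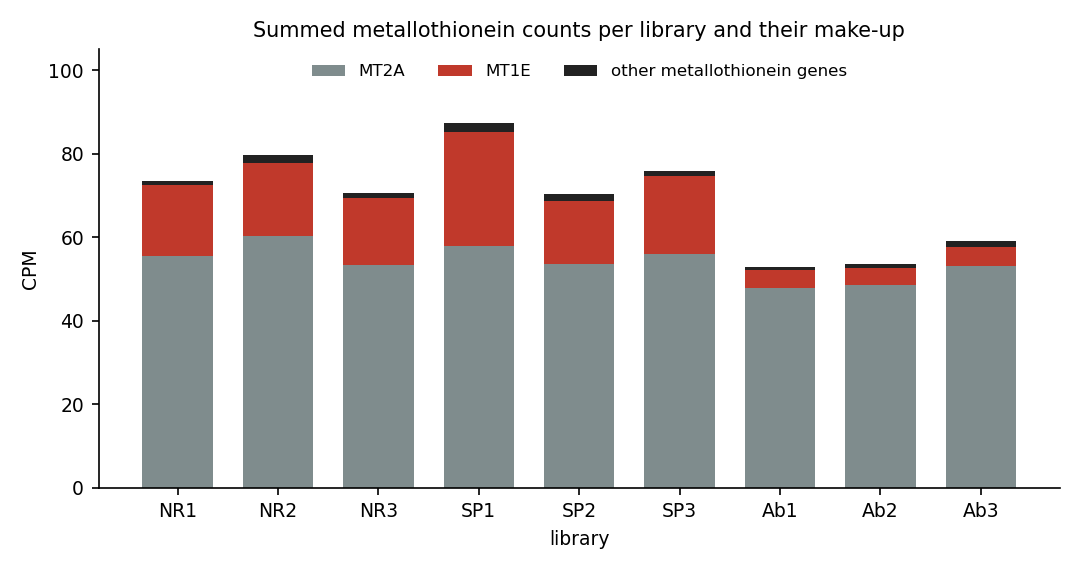
Summed metallothionein level of each library in CPM (vertical axis, from 0), split into MT2A, MT1E and all other metallothionein genes. The Ab bars reach 52.8 to 59 CPM and the others 70.3 to 87.3 CPM, and most of the gap is the MT1E segment.

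MT1F, a further MT1 isoform, was seen mainly in nanoparticle libraries. NR libraries held 10, 12 and 12 counts of it, SP libraries 27, 16 and 4, and Ab libraries 1, 1 and 2. No nanoparticle library was as low as an Ab library on the count scale, but the SP libraries spread widely. Summed over libraries and scaled to the totals, the ratio was 10.2 for NR against Ab (exact 95% interval 3.65 to 39.7, counting error only) and 12.1 for SP against Ab (4.41 to 46.1). MT1F did not pass the filter on low counts against Ab, so the main test gave no call. It was called in SP against Ab, beside MT1E, by DESeq2, with all 9 libraries in one fit, and when Ab1, Ab2, Ab3 or SP3 was left out, which raised the count of called members from 1 to 2. In NR against Ab it was called by DESeq2, without the filter, with all 9 libraries in one fit, and when NR1, Ab1, Ab2 or Ab3 was left out, which raised the count from 2 to 3. In NR against SP it differed by −0.19 (SE 0.49, adjusted p = 0.913).

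MT1X had 0, 3 and 2 counts in NR libraries, 8, 8 and 9 in SP libraries and 3, 0 and 2 in Ab libraries. SP libraries were the only ones above 3 counts. The ratio was 5.13 for SP against Ab (exact 95% interval 1.93 to 17.2), 1.2 for NR against Ab (0.277 to 5.23) and 0.235 for NR against SP (0.0702 to 0.624), again for counting error only. MT1G had 1 count, in NR3, and MT1M had 0 counts in all libraries, which in each library allows up to the limits given above. Among the other metallothionein genes, 14 of 16 symbols were matched, none had enough counts to be tested, and 7 had 0 counts throughout, MT1A, MT1B, MT1H, MT1HL1, MT1L, MT1CP and MT3. The pseudogene MT1DP had 6, 1 and 4 counts in NR, 2, 7 and 6 in SP and 0 in each Ab library, at least 4.42-fold higher in NR and at least 5.13-fold higher in SP against a limit of 3 counts over the Ab group. All exon bases of MT1DP lie in another gene, so these counts cannot be assigned with certainty. MT1XP1, a processed pseudogene, went the other way, with 4, 4 and 2 counts in NR libraries, 2, 2 and 3 in SP libraries and 8, 22 and 11 in Ab libraries. MT4 had at most 13 counts, in Ab3, and MT1JP, MT1P1, MT1P3 and MT2P1 had at most 2 in a library.

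MTF1, the zinc sensor, was at 25.1, 25.6 and 27.3 CPM in NR, 26.1, 26.6 and 28.7 CPM in SP, and 35.4, 36.1 and 34.2 CPM in Ab. All nanoparticle libraries were below all Ab libraries. It fell by 0.47 on the log2 scale in NR (SE 0.07, edgeR adjusted p = 1.08e-06) and by 0.40 in SP (SE 0.07, adjusted p = 1.17e-05), in both cases by less than 2-fold. NR and SP differed by −0.06 (95% interval −0.21 to 0.09, adjusted p = 0.773).

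SLC30A1 was at 182, 184 and 175 CPM in NR, 189, 202 and 201 CPM in SP, and 343, 370 and 365 CPM in Ab. All Ab libraries were higher, with a gap far wider than the spread within a group. It fell by 1.02 on the log2 scale in NR (SE 0.04, edgeR adjusted p = 8.68e-18), just past the 2-fold minimum, and by 0.89 in SP (SE 0.05, adjusted p = 7.6e-16), short of it. A test against the 2-fold minimum itself, glmTreat, no longer called SLC30A1 in NR. NR was lower than SP by a log2 difference of −0.13 (95% interval −0.21 to −0.04), and the 3 NR libraries lay below the 3 SP libraries, but the adjusted p was 0.148. All 4 members tested against Ab had libraries that did not overlap with Ab, 2 above and 2 below, in NR and in SP, where 74.6% and 75.1% of all genes tested did not overlap either. In NR against SP 1 of 5 members, SLC30A1, did not overlap, against 18.1% of all genes.

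**Figure D3:**
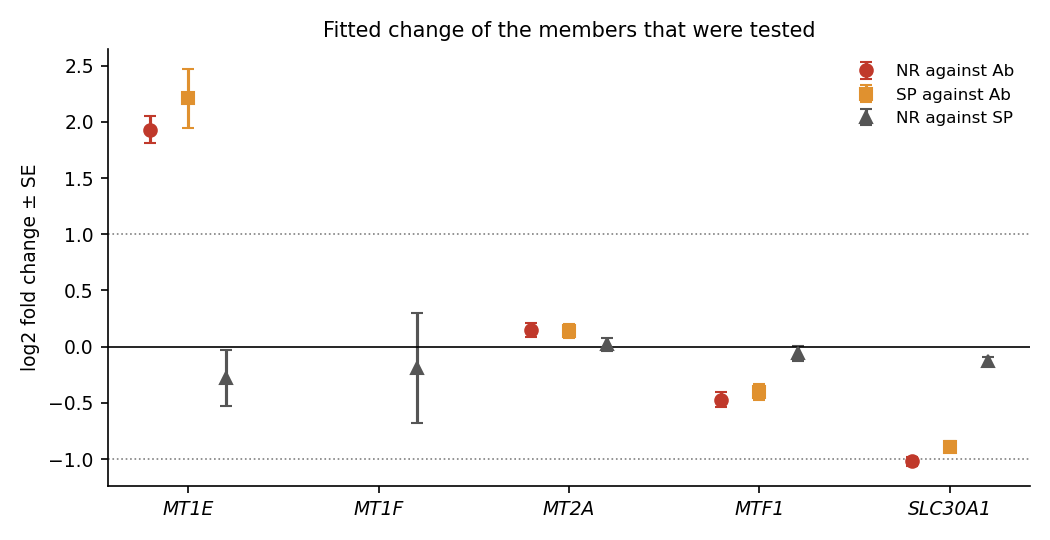
Log2 fold change (vertical axis) with its SE for the members tested in each of the 3 comparisons, with dotted lines at a 2-fold change in either direction. MT1E stands near 2 and SLC30A1 near −1 in both comparisons with Ab, and the NR against SP values lie between −0.28 and 0.02; MT1F was tested only in NR against SP.

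Per kilobase of exon, the order of levels changed between the groups. In Ab, SLC30A1 (61 ± 2.43 CPM per kb) and MT2A (54.4 ± 3.06) came first and differed by little more than their spread, followed by MTF1 (4.41 ± 0.121) and MT1E (4.11 ± 0.302), whose ranges of mean and SD overlapped. In NR, MT2A (61.8 ± 3.99) was above SLC30A1 (30.6 ± 0.854), MT1E (15.9 ± 0.609) and MTF1 (3.26 ± 0.149). In SP the order was as in NR, with MT2A at 61 ± 2.38, SLC30A1 at 33.5 ± 1.30, MT1E at 19.4 ± 6.01 and MTF1 at 3.40 ± 0.177 CPM per kb. MT1F, MT1X and MT1G were below 0.4 CPM per kb of exon in every group. These levels use the summed length of all annotated exons. Per kilobase of the longest annotated coding sequence, MT2A reached 258 in NR and 227 in Ab, SLC30A1 119 and 236, and MT1F 3.66 and 0.336. MT1X reached 2.1 in SP. For MT2A that length was 219 bases, longer than the 183 bases of the coding sequence shown above.

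The genes most like MT2A over the 9 libraries, by the root mean square difference of log2(CPM + 1) relative to the Ab mean among 9535 genes, were RBBP5 (0.0455), ENSG00000256663 (0.0493), ZCRB1 (0.0508), IMPDH2 (0.0533) and MAGEA6 (0.054). RBBP5, a subunit of histone methyltransferase complexes, was at 70.4 CPM in NR, 70.4 in SP and 62.8 in Ab. IMPDH2, an enzyme of guanine nucleotide synthesis, was at 222, 217 and 197 CPM. These genes share with MT2A a near-flat profile, which is the measure that chose them.

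Among other zinc exporters of the SLC30 family, of 9 listed, 6 were tested in NR against Ab, 3 rose and 1 fell at an adjusted p of 0.05, and 1 was called. The median log2 fold change was 0.10, beside −0.01 over all genes, of which 36.4% rose, 36.4% fell and 22.7% were called. In SP 5 were tested, 2 rose, 1 fell and none was called, with a median of 0.00 beside −0.01, and 36.4% of all genes rose, 36.6% fell and 23.2% were called. SLC30A7, which loads zinc into the Golgi apparatus, fell by 0.60 in NR (SE 0.06, edgeR adjusted p = 5.54e-10) and by 0.63 in SP (SE 0.06, adjusted p = 3.48e-10). SLC30A4, a transporter of endosomal vesicles, rose by 0.56 in NR (SE 0.18, adjusted p = 0.0073) and 0.83 in SP (SE 0.17, adjusted p = 0.000106). SLC30A9 rose from 66.2 ± 4.08 CPM in Ab to 73.9 ± 5.51 in NR (adjusted p = 0.0448) and 81.2 ± 3.85 in SP (adjusted p = 0.000254). SLC30A3, known for synaptic vesicles, was the gene called in NR, on 13, 9 and 8 counts against 3, 2 and 2 in Ab. It had 13, 10 and 14 counts in SP, where it did not pass the filter on low counts, so the counts of genes differ between the comparisons by that filter. Of the 5 genes tested in both, SLC30A5 was the middle one, at 0.05 in NR and 0.00 in SP (adjusted p = 0.396 and 0.987).

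Zinc importers of the SLC39 family also differed from Ab in both directions. Of 14 listed, 10 were tested against Ab. In NR 5 rose and 3 fell, with a median of 0.11, and in SP 4 rose and 3 fell, with a median of 0.10, so 8 and 7 of 10 passed, near the 72.7% and 73% of all genes that did. SLC39A11 was called in both, from 3.82 ± 0.467 CPM in Ab to 10.5 ± 0.747 in NR (log2 1.43, SE 0.14, adjusted p = 4.24e-10) and 10.2 ± 0.821 in SP (1.40, SE 0.14, adjusted p = 5.75e-10). SLC39A4, the importer of intestinal zinc uptake, rose by 0.79 in NR (SE 0.08, adjusted p = 5.99e-10) and 0.81 in SP (SE 0.08, adjusted p = 7.18e-10). SLC39A14, which takes up zinc, iron and manganese at the plasma membrane and was the most abundant named importer, fell from 390 ± 8.98 CPM in Ab to 235 ± 5.39 in NR (log2 −0.76, SE 0.04, adjusted p = 2.2e-15) and 236 ± 13.7 in SP (−0.75, SE 0.05, adjusted p = 4.43e-14). SLC39A7 had 1 count in all 9 libraries together, and whether reads with several equally good positions were counted is not known.

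Genes that handle copper, another metal that metallothioneins bind, were mostly higher with the nanoparticles. All 11 tested of 14 listed passed an adjusted p of 0.05 in NR and in SP, 9 higher and 2 lower in each, where 72.7% and 73% of all genes passed and 36.4% rose in each comparison. The medians were 0.88 in NR and 0.83 in SP, beside −0.01 over all genes in each comparison. At 2-fold, 3 were called in NR and 4 in SP, all higher, where 12.4% and 12.6% of all genes were called higher. STEAP4, a reductase of iron and copper ions, rose from 7.13 ± 0.413 CPM in Ab to 47.9 ± 2.19 in NR (log2 2.72, SE 0.08, edgeR adjusted p = 2.51e-21) and 46.1 ± 3.55 in SP (2.67, SE 0.09, adjusted p = 3.59e-20). ATOX1, the chaperone that hands copper to the export pumps, rose from 5.25 ± 0.408 CPM to 18.3 ± 1.48 in NR (1.78, SE 0.11) and 17.3 ± 2.89 in SP (1.69, SE 0.12). STEAP3, an endosomal ferrireductase, was at 82.6 ± 2.49 CPM in NR, 81.3 ± 3.17 in SP and 44.1 ± 2.6 in Ab. The pumps themselves, singled out after their values were seen, rose as well, ATP7B by 1.47 and 1.65 and ATP7A by 0.90 and 1.03 in NR and SP. SLC31A1, the copper importer, also singled out, fell by 0.67 and 0.69.

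Of 13 metal and oxidant stress genes, 11 were tested. In NR 7 rose and 3 fell at an adjusted p of 0.05, with a median of 0.30, and in SP 6 rose and 2 fell, with a median of 0.29, beside −0.01 over all genes, of which 72.7% and 73% passed. At 2-fold, 1 was called higher and 1 lower in each comparison, where 22.7% and 23.2% of all genes were called. NQO1, a quinone reductase, rose from 78.9 ± 1.76 CPM in Ab to 241 ± 3.76 in NR (log2 1.58, SE 0.05, adjusted p = 7.45e-22) and 232 ± 7.89 in SP (1.53, SE 0.05, adjusted p = 1.84e-20). TXNRD1, which keeps thioredoxin reduced, was at 956 ± 18.9 CPM in NR, 1028 ± 75.4 in SP and 581 ± 11.0 in Ab. SLC7A11, the cystine transporter that feeds glutathione synthesis, fell from 98.2 ± 7.6 CPM in Ab to 37.1 ± 1.97 in NR (−1.43, SE 0.06, adjusted p = 1.03e-17) and 46.5 ± 7.29 in SP (−1.10, SE 0.10, adjusted p = 7.22e-07). HMOX1, the heme oxygenase that metals and oxidants induce, rose by 0.84 in each (SE 0.08 in NR and 0.09 in SP). HSPA1A and HSPA1B, the inducible heat shock proteins, had at most 5 counts in a library, but they are near-identical copies, and whether reads that match both were counted is not known. No gene of these 4 lists passed in NR against SP, where 0.443% of all genes did.

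**Figure D4:**
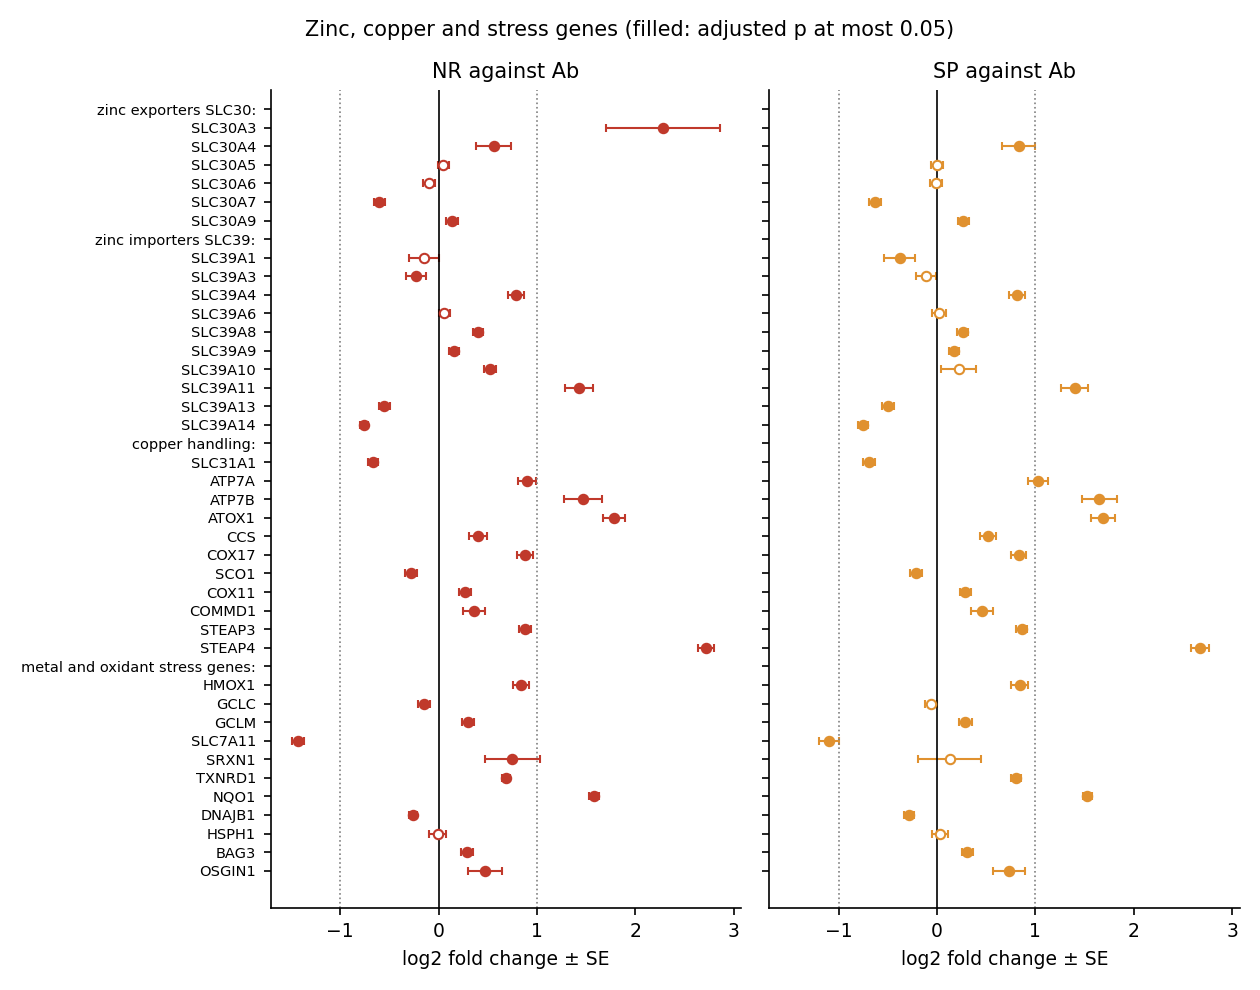
Log2 fold change against Ab (horizontal axis) with its SE for the tested zinc, copper and stress genes, in NR (left) and SP (right); filled points passed an adjusted p of 0.05, and dotted lines mark 2-fold. STEAP4 lies farthest right and SLC7A11 farthest left in both panels, and the SLC30A3 point in NR rests on at most 3 counts in each Ab library.

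Genes beside the cluster were examined for comparison. Of 17 genes other than metallothioneins that lie within 250 kb of its ends, at least in part, 9 were tested, and their median was 0.28 in NR and 0.34 in SP on the log2 scale. In NR 6 rose and 3 fell, and in SP 5 rose and 3 fell, where 72.7% and 73% of all genes passed, about as many up as down. SLC12A3, a sodium chloride cotransporter known from the kidney, at chr16:56899119-56949762, was at 124 ± 3.86 CPM in NR, 151 ± 25.7 in SP and 3.95 ± 0.758 in Ab. Its log2 fold change was 4.97 in NR (SE 0.09, adjusted p = 4.12e-26) and 5.25 in SP (SE 0.20, adjusted p = 1.83e-06), the largest of the neighbours and larger than that of MT1E. The pseudogene RPS24P17 lies inside the bounds of SLC12A3 and differed by 3.93 and 4.06, and without strand its reads cannot be told apart from those of the host. HERPUD1, a protein of the endoplasmic reticulum stress response, fell from 283 ± 9.78 CPM in Ab to 73.6 ± 4.12 in NR and 64.7 ± 3.50 in SP (log2 −1.97 and −2.15, SE 0.05 in both). BBS2, whose annotated bounds reach into the cluster, rose by 0.69 in NR and 0.67 in SP (SE 0.08 in both), and MT2A lay within the cluster at 0.15 and 0.14. Neighbours with small values flanked the cluster on both sides, OGFOD1 at −0.23 and −0.24 and NUP93 at 0.28 and 0.34.

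**Figure D5:**
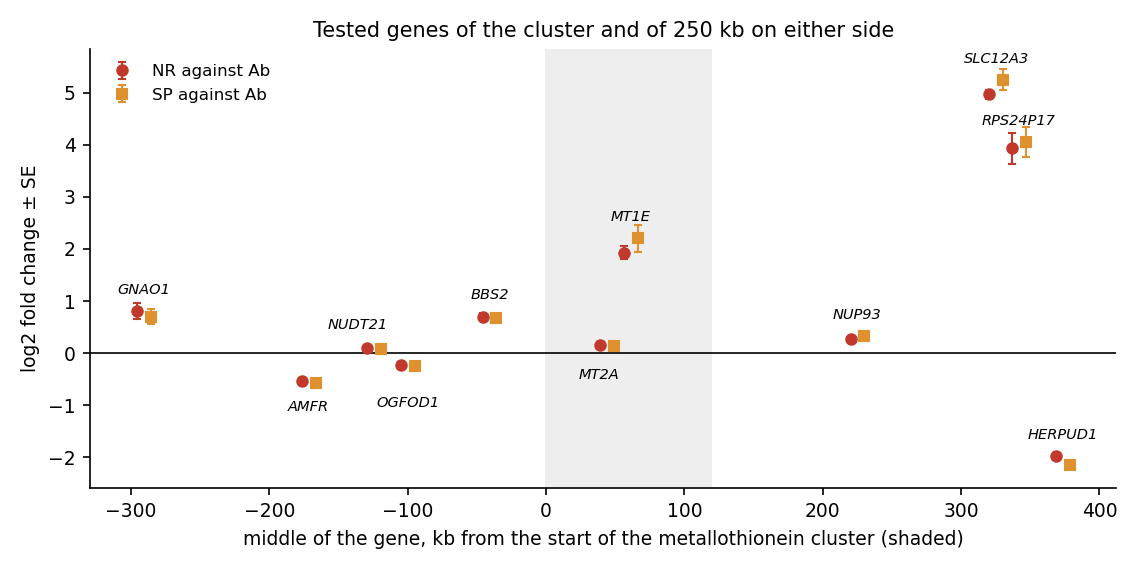
Log2 fold change against Ab (vertical axis) with its SE for the tested genes of the metallothionein cluster and those within 250 kb of it, by the distance in kb of the middle of the gene from the start of the cluster (shaded, 119.1 kb); circles are NR and squares SP, set slightly apart. MT1E and MT2A differ from each other within the cluster, and SLC12A3 and HERPUD1 lie at the extremes.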

How the data were processed

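The authors filtered reads with in-house scripts, aligned them with HISAT2 2.1.0 and counted them per gene. The deposited values are whole read counts per Ensembl gene, not scaled between libraries. The study's text gives hg19 as the genome and the submitters' processing notes list mm9, but the IDs are human. The counter is named in different ways, and the annotation release was not stated. GENCODE release 44 on GRCh37 gave names and positions for 59858 IDs. Each pair of groups was fitted on its 6 libraries with edgeR 4.0.16 (R 4.3.3) using TMM, filterByExpr (minimum count 10, minimum total 15), the robust quasi-likelihood test and Benjamini-Hochberg adjustment over all genes. The study used DESeq2 1.16.1, and DESeq2 1.42.0 was an alternative here. The SE is the log2 fold change over the square root of the F statistic, and 95% intervals use the t distribution with the degrees of freedom of the fit. Steps were tested on simulated counts. Members, lists, tests and alternatives were chosen with earlier results of these data known. Beside the members, the text names, for each comparison with Ab, the 3 genes per list that had the lowest adjusted p, the tested neighbours of the cluster and the 5 genes most like MT2A. It also names some genes of the lists outside this rule, among them SLC39A7. Further genes planned for the stress and marker lists are in no count or sum and are not reported here. Libraries of a group differed from each other by more than sampling noise.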

Additional observations from a re-analysis of the deposited data

How the results depend on the processing

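Each fit was repeated with DESeq2, RLE size factors, no filter on low counts, at least 10 counts in every library, all 9 libraries in one fit, the replicate block, and each library left out. MT1E, MTF1, SLC30A1 and the summed metallothionein counts passed an adjusted p of 0.05 against Ab in all 12 alternatives that give a fold change and kept their direction. The log2 ranges in NR were 1.87 to 1.98, −0.51 to −0.45, −1.06 to −1.0 and 0.36 to 0.46, and in SP 1.93 to 2.38, −0.44 to −0.38, −0.92 to −0.87 and 0.37 to 0.53. MT2A passed in 5 of 12 alternatives in NR (adjusted p from 0.0142 to 0.211) and in 3 of 12 in SP (0.0266 to 0.183). Members called in NR against Ab numbered 1 with glmTreat at 2-fold and 4 with no fold minimum. In SP against Ab they numbered 2 with DESeq2, 2 with all 9 libraries in one fit, 3 with no filter on low counts (MT1E, MT1F and MT1X), 3 with no fold minimum and 1 to 2 with a library left out. In NR against SP no member passed in any alternative, but DESeq2 left the adjusted p of MT1E, MT1F, MT2A and MTF1 as NA. There the summed counts reversed without SP1 (0.03, and −0.13 to 0.03 over all libraries left out), MT1F without NR1 or SP1 (0.17 and 0.47, and −0.61 to 0.47 over all libraries left out), and MT2A without NR2 or SP2 (−0.03 and −0.01). The cause of these changes was not tested.

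Replicate numbers are shared by the groups in the labels. Deviations of same-numbered libraries correlated little across genes (−0.0317 to 0.0279), beside −0.0338 to 0.0347 for libraries of different number. Between SP and Ab, all same-numbered pairs were positive (0.0279, 0.0203 and 0.0219) and all other pairs negative. Same-numbered pairs with NR had both signs. Correlations this small cannot decide whether same-numbered libraries shared a culture or a preparation. With the replicate block, 2 members were called in NR against Ab, 1 in SP against Ab and 0 in NR against SP, as without it. MT2A had an adjusted p of 0.0515 in NR and 0.0454 in SP under the block, on the other side of the threshold in both.

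Depth limits MT1F, MT1X, MT1G, MT1M and the pseudogenes, for which ratios rest on 0 to 47 counts over a group. With stretches of 50 bases in place of 75, the share of a transcript found in other genes was 5.34% for MT1E, 11.1% for MT2A and 51% for MT1X, and with 100 bases it was 0 for MT1E and 22% for MT1X. In the 150 bases before the start, MT2A had 4 motif matches and SLC30A1 had 1, while MT1H, without counts in any library, had 5.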
